A study of Mus musculus with 6 samples.

Results

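The 31 genes described here belong to the unfolded protein response and the amino acid response, and were chosen by symbol from the 43283 gene rows of an expression table. All 31 symbols were found, each once. RNA sequencing gave 6 libraries of muscle stem cells, which express Pax7 and rebuild skeletal muscle after injury. The 3 Vehicle libraries came from cells kept for 24 h with DMSO and the 3 PGE2 libraries from cells kept for 24 h with prostaglandin E2, a lipid mediator released in injured tissue. Both groups shared everything else the labels give: female C57BL/6 mice, hindlimb muscle, and flow sorting for α7-integrin and CD34 without CD45, Sca1, CD31 and CD11b. The age is given as 8 to 12 weeks in the protocol and as 2 to 4 months in the design text. The medium held 20% fetal bovine serum, and RNA came from 5000 to 10000 cells. The design text calls them biological triplicates but no label names separate animals or cultures. The p-values therefore rest on library-to-library spread, whose source, biological or technical, is unknown. The comparison asks whether a day of PGE2 altered the transcripts of these responses.

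Secreted and membrane proteins fold in the endoplasmic reticulum (ER) with the help of chaperones and disulfide isomerases. When unfolded proteins accumulate, the ER membrane sensors IRE1 (Ern1), PERK (Eif2ak3) and ATF6 signal to the nucleus through the factors XBP1, ATF4 and cleaved ATF6. ATF4 is also made when the kinase GCN2 senses amino acid shortage, and it then drives genes of serine, asparagine and cysteine supply, amino acid transport and tRNA charging. In muscle stem cells, PERK and phosphorylation of its target, the translation factor eIF2α, are known from work in mice for their part in quiescence and survival.

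None of the genes that could be tested passed the test for a change with PGE2. Values are in TPM, the share of a library's transcripts that a gene takes after correction for transcript length. A gene was tested if it reached 1 TPM in at least 3 libraries, which 29 of the 31 did. Trib3 and Cbs did not. With limma on log2(TPM + 1), 0 of the 29 passed a Benjamini-Hochberg adjusted p of 0.05 and 0 had an unadjusted p under 0.05. Over all 12781 tested genes, 0 (0%) passed the adjusted threshold and 464 (3.63%) the unadjusted one. Under the alternatives the members' unadjusted count was 0 to 3. It was 3 of 27 without PGE2 1 and 3 of 28 without PGE2 3. In those 2 fits, 929 of 12039 and 716 of 12048 of all tested genes had an unadjusted p under 0.05. Of the 29, 9 were fitted higher and 20 lower under PGE2, at a median log2 change of -0.09. All tested genes had a median of -0.07 and 56.1% lower values. The members' split moved to 12 higher and 17 lower after median-ratio scaling, and to 7 and 22 when TPM were rescaled without mitochondrial genes. Without PGE2 3 it was 15 higher and 13 lower of 28, with a median of 0.13. A log2 change is the PGE2 value minus that of Vehicle after adding 1 to the TPM. The added 1 shrinks the changes of weakly expressed genes. Brackets hold 95% confidence intervals of the limma fit. The interval reached to either side of the change by a median of 0.89 among the members and 1.21 among all tested genes.

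The libraries differed in ways that touch these values. Genes listed above 0 numbered 16446 to 19677 in Vehicle and 15400 to 17710 in PGE2, the fewest in PGE2 1, and mitochondrial genes held 20.9% to 33.6% of the TPM. Pearson's r across genes was 0.807 to 0.846 between PGE2 libraries and 0.886 to 0.926 between Vehicle libraries. Of 7 muscle stem cell and myoblast markers all 7 were tested, and their summed level was 563 to 633 TPM in Vehicle against 423 to 598 TPM in PGE2. Myf5 had the highest group means of the 7, 280 TPM in Vehicle and 202 TPM in PGE2. Of the 7, 5 were fitted lower and 2, Myod1 and Cdh15, higher. Cdh15 read 0 to 5.15 TPM and Itga7 2.69 to 13.2 TPM over the 6 libraries. Of the markers of other cells, 3 of 8 leukocyte, 3 of 6 endothelial, 2 of 6 fibro-adipogenic, 1 of 4 glial and 1 of 5 pericyte and smooth muscle genes were tested. Their summed levels in Vehicle and PGE2 were 3.09 to 9.83 and 5.67 to 9.69 TPM for leukocyte, 4.16 to 7.42 and 6.90 to 19.9 TPM for endothelial and 18.8 to 31.5 and 24.9 to 45.5 TPM for fibro-adipogenic genes. They were 2.89 to 4.71 and 2.14 to 9.01 TPM for glial and 6.57 to 15.8 and 9.55 to 11.8 TPM for pericyte and smooth muscle genes. Col3a1, at 15.31 to 36.45 TPM, held most of the fibro-adipogenic sum, while Pdgfra, Dcn, Lum and Dpt reached at most 1.45 TPM. Acta2, at 4.77 to 13.4 TPM, held most of the pericyte and smooth muscle sum. Single genes of these lists differed: the leukocyte gene Cd74 was listed at 0 in all 6 libraries, while Ptprc and Laptm5 reached 4.81 and 6.45 TPM. The endothelial gene Cdh5 stayed at or below 0.22 TPM, while Emcn reached 15.3 TPM in PGE2 3. Endothelial Eng read 1.57, 1.10 and 0.96 TPM in Vehicle against 2.55, 6.44 and 2.54 TPM in PGE2, without overlap. Of all tested genes, 3.18% had higher PGE2 values without overlap. The other tested endothelial genes, Tek and Pecam1, were fitted lower, with log2 changes of -0.75 and -0.29. The part of other cells in the members' values was not tested. In bulk RNA, fewer cells that express a gene and less RNA per cell cannot be told apart.

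The members were mostly well expressed. Of the 29, 22 lay in the upper 50% of tested genes by mean log2 level and 7 in the top 10%. Those 7 were the chaperones Hsp90b1, Hspa5, Canx and Calr, the isomerase Pdia3, the factor Atf4 and the serine enzyme Psat1. The median of the 31 members' mean TPM was 27.8, and that of all tested genes was 9.72. The plot of TPM by gene and library spans Cbs, listed at 0 in 5 of 6 libraries, to Hsp90b1, at 1003 TPM or more in each.

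**Figure D1:**
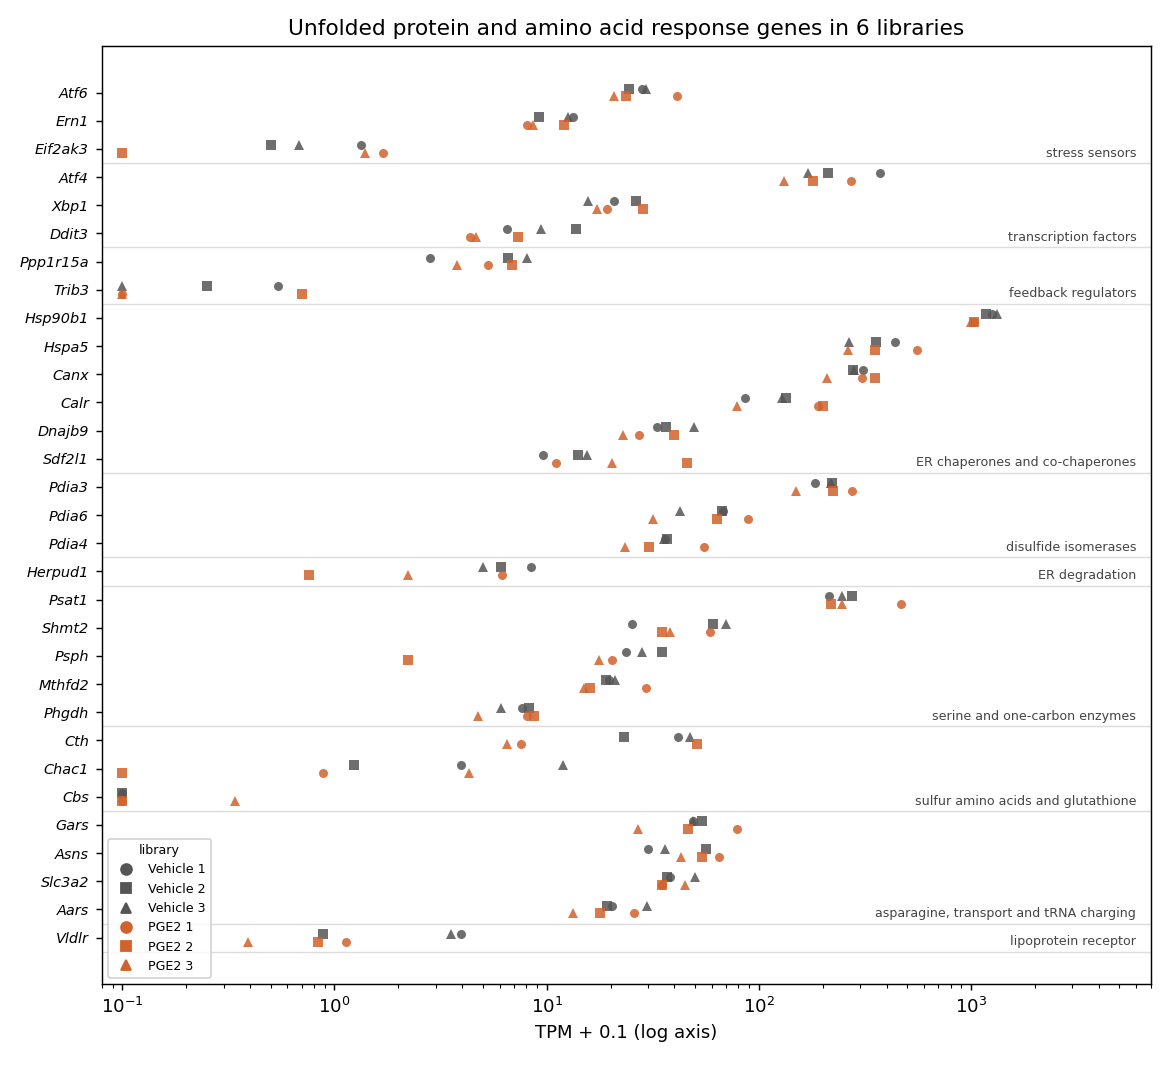
TPM + 0.1 on a log axis for each of the 31 genes, grouped by role, with 1 point per library (grey Vehicle, orange PGE2, the shape giving the replicate number). The 2 colours are apart for Hsp90b1 and Psph and interleave for the other genes.

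The 3 ER stress sensors differed in level from each other, and their groups overlapped. Atf6, the sensor cleaved in the Golgi, read 27.96, 24.4 and 29.2 TPM in Vehicle 1 to 3 against 40.9, 23.6 and 20.6 TPM in PGE2 1 to 3, with a log2 change of 0.00 (-0.82 to 0.82). PGE2 1 held the highest value and PGE2 2 and 3 the lowest pair, so the PGE2 values enclosed those of Vehicle. Ern1, the kinase and nuclease that splices Xbp1 mRNA, read 13.2, 9.06 and 12.5 TPM in Vehicle against 7.98, 12.0 and 8.52 TPM in PGE2, with a log2 change of -0.27 (-1.22 to 0.69). Eif2ak3, which encodes PERK, was at the edge of the filter. It read 1.24, 0.40 and 0.58 TPM in Vehicle against 1.59, 0 and 1.29 TPM in PGE2, so 3 libraries were above 1 TPM.

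Among the transcription factors, Atf4 was the most abundant. It read 374, 211 and 170.1 TPM in Vehicle against 272, 179 and 131 TPM in PGE2, with a log2 change of -0.35 (-1.21 to 0.50). Its values spread 2.20-fold among Vehicle and 2.07-fold among PGE2 libraries, and the groups overlapped. ATF4 is controlled mainly by translation, which these data do not measure. Xbp1 read 20.6, 26.1 and 15.5 TPM in Vehicle against 19.2, 28.3 and 17.2 TPM in PGE2, with a log2 change of 0.05 (-0.80 to 0.91). The gene total does not separate its spliced from its unspliced form. Ddit3, which encodes the factor CHOP that acts late in stress, read 6.42, 13.7 and 9.25 TPM in Vehicle against 4.27, 7.23 and 4.54 TPM in PGE2. Its log2 change was -0.74 (-1.85 to 0.37), with an unadjusted limma p of 0.168 and an adjusted p of 1.00. PGE2 2 lay above Vehicle 1, so the groups overlapped. The gene model of Ddit3 overlaps Mars, on the opposite strand and at 75.5 to 138 TPM, and reads from the overlap cannot be told apart without strand. The overlap is confined to the 3′ ends, since Ddit3 ends at position 127296288 of chromosome 10 and Mars starts at 127296221. The sign of the change held in each of the 16 alternatives for Ddit3 and Atf4 and turned in 3 for Xbp1.

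Both feedback regulators were low. Ppp1r15a, the GADD34 subunit that directs a phosphatase to eIF2α, read 2.73, 6.45 and 7.99 TPM in Vehicle against 5.20, 6.79 and 3.66 TPM in PGE2. Its log2 change was -0.05 (-1.27 to 1.17). Trib3, a pseudokinase induced by ATF4 and CHOP, was listed at 0 in 3 libraries and reached 0.60 TPM in PGE2 2.

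The chaperones of the ER lumen and membrane formed the most abundant group, and 1 of the 6 had separate groups. Hsp90b1 (ENSMUSG00000020048, mm10 chromosome 10, 86690209 to 86705509, minus strand), which encodes GRP94, the ER member of the HSP90 family, read 1252, 1172 and 1319 TPM in Vehicle against 1030.4, 1028 and 1003 TPM in PGE2. Each PGE2 library was below each Vehicle library. The means were 1248 ± 73.6 and 1020.2 ± 15.3 TPM (SD, n = 3 each), with a log2 change of -0.29 (-0.94 to 0.37), an unadjusted limma p of 0.349 and an adjusted p of 1.00. Its pooled SD on the log2 scale, 0.06, was smaller than that of 99.9% of tested genes. The SD limma used after borrowing from other genes was 0.36. With 3 libraries against 3, an exact two-sided permutation test gives p = 0.1 for any gene whose groups do not overlap, so it adds nothing to that observation. Hsp90b1 shares 273 transcript bases with 1810014B01Rik on the opposite strand, which read 3.97 to 13.7 TPM. Groups that did not overlap were found with lower PGE2 values for 2 of the 29 members, Hsp90b1 and Psph, and for 4.84% of all tested genes. Higher PGE2 values without overlap were found for 0 of the 29 and for 3.18% of all tested genes.

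Hspa5 (chromosome 2, 34771970 to 34777547), which encodes BiP, the HSP70 chaperone that also restrains the sensors, read 436, 358 and 267 TPM in Vehicle against 555, 353 and 262 TPM in PGE2. Vehicle 2 lay close to PGE2 2 and Vehicle 3 close to PGE2 3, and PGE2 1 was the highest library. The log2 change was 0.10 (-0.68 to 0.89), and it became -0.19 without PGE2 1 and -0.09 without Vehicle 3. Canx, the membrane lectin chaperone calnexin, read 308, 276 and 281 TPM in Vehicle against 307, 352 and 209 TPM in PGE2, with the PGE2 values enclosing those of Vehicle. Calr, its soluble relative calreticulin, read 85.7, 135 and 129 TPM in Vehicle against 191, 201 and 78.9 TPM in PGE2. The Calr libraries PGE2 1 and 2 were above all Vehicle libraries and PGE2 3 was below them. Its log2 change was 0.34 (-0.55 to 1.23), and 0.77 without PGE2 3, with an unadjusted limma p of 0.0439 and an adjusted p of 0.821. Here and below, p-values of fits without 1 library are given for single genes only where they fell under 0.05. They were picked by value and are not support for a change.

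The co-chaperones went apart in fitted direction, and neither passed the test. Dnajb9, the ERdj4 partner of BiP and a target of spliced XBP1, read 33.0, 36.3 and 49.5 TPM in Vehicle against 27.0, 39.5 and 22.7 TPM in PGE2, with a log2 change of -0.42 (-1.20 to 0.37). Sdf2l1, a subunit of BiP complexes, read 9.54, 13.9 and 15.4 TPM in Vehicle against 10.9, 45.6 and 20.2 TPM in PGE2. Its log2 change of 0.73 (-0.43 to 1.89) was the highest of the 29 members. PGE2 2 and 3 were above all Vehicle libraries, and PGE2 1 lay among them. Without PGE2 1 the Sdf2l1 change was 1.19, with an unadjusted limma p of 0.0303 and an adjusted p of 0.614.

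The 3 disulfide isomerases, which form and rearrange the disulfide bonds of folding proteins, shared an order among the PGE2 libraries. Pdia3, the partner of the lectin chaperones, read 183, 222 and 219 TPM in Vehicle against 275, 224 and 149.7 TPM in PGE2. Pdia4 read 36.2, 36.8 and 35.7 TPM in Vehicle against 55.1, 30.4 and 23.2 TPM in PGE2. Pdia6 read 67.4, 66.8 and 42.5 TPM in Vehicle against 88.6, 63.6 and 31.5 TPM in PGE2. For each of the 3, PGE2 1 was the highest and PGE2 3 the lowest of all 6 libraries. Falling values from PGE2 1 over PGE2 2 to PGE2 3 were found for 12 of the 29 members (41.4%). The same order held for 5 of the 10 folding genes and for 23.3% of all tested genes, so it is not particular to the isomerases. Their log2 changes were 0.02 (-0.67 to 0.71), -0.09 (-0.93 to 0.75) and -0.03 (-0.95 to 0.89). For Pdia4 the SD was 0.523 TPM among Vehicle and 16.7 TPM among PGE2 libraries around nearly equal means of 36.2 and 36.3 TPM (n = 3 each).

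Herpud1 (chromosome 8, 94386438 to 94395377), a membrane protein of the machinery that degrades misfolded ER proteins, had the lowest fitted value of the folding genes. It read 8.32, 5.99 and 4.93 TPM in Vehicle against 6.05, 0.66 and 2.13 TPM in PGE2. PGE2 2 and 3 were below all Vehicle libraries, and PGE2 1 lay between Vehicle 1 and 2. The log2 change was -1.13 (-2.54 to 0.28), with an unadjusted limma p of 0.104. It was -1.68 without PGE2 1, with an unadjusted limma p of 0.0159 and an adjusted p of 0.574.

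**Figure D2:**
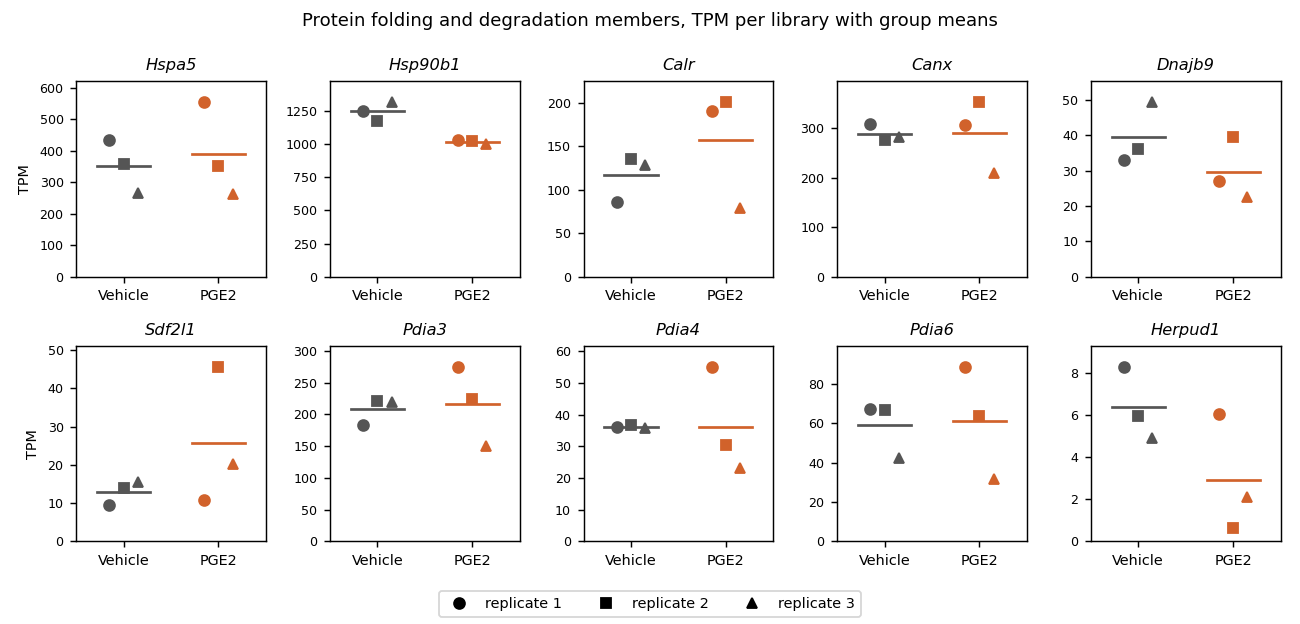
TPM of the 10 protein folding and degradation genes in each library, with the axis of each panel starting at 0, the point shape giving the replicate number and a line at each group mean. Hsp90b1 has separate groups, and PGE2 3 is the lowest PGE2 library in 8 of the 10 panels.

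Some promoters of this response carry the ER stress element (ERSE), a site read by ATF6 and XBP1 with the CCAAT factor NF-Y. The element was searched as CCAAT, 9 free bases and CCACG, on both strands, in the RefSeq windows of build GRCm38.p6 from 250 bases before to 50 after the start. Of the 29 members with a window, 5 held it: Hspa5, Hsp90b1, Calr, Canx and Pdia6. It was in 0.119% of all 32851 windows. The related ERSE-II, searched as ATTGG, 1 free base and CCACG, was found in Herpud1 and in 0.0365% of all windows. A match describes letters only, and binding was not measured. The sites are shown with 20 bases on either side, 5′ to 3′ in the direction of the gene, with the element in capitals.
Hspa5 (chr2:34772005-34772063, plus strand): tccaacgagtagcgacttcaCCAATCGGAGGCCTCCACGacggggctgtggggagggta
Hsp90b1 (chr10:86705618-86705676, minus strand): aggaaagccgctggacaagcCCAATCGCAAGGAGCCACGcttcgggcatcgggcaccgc
Hsp90b1 (chr10:86705513-86705571, minus strand): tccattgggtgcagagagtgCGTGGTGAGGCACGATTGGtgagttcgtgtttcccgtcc
Calr (chr8:84847055-84847113, minus strand): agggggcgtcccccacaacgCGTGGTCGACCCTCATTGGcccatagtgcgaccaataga
Canx (chr11:50325780-50325838, minus strand): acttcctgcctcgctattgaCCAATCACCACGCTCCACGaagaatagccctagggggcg
Pdia6 (chr12:17266471-17266529, plus strand): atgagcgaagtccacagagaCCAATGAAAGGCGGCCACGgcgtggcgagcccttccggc
Herpud1 ERSE-II (chr8:94386357-94386407, plus strand): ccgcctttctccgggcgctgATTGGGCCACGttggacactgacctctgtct

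The 5 genes with an ERSE had mean levels of 60.1 to 1134 TPM over the 6 libraries. With PGE2, 2 had higher and 3 lower fitted values, with a median log2 change of -0.03, beside -0.07 for all tested genes. PGE2 3 was the lowest PGE2 library for all 5, which are among the 10 folding genes. It was also the lowest for 8 of those 10, for 65.5% of the tested members and for 38.2% of all tested genes. The count is therefore not read as a result about the element. For Hsp90b1, which holds 2 sites on opposite strands, the 3 PGE2 values lay within 1.03-fold of each other, and for Pdia6 they spanned 2.81-fold.

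The enzymes of serine and one-carbon metabolism had 1 gene with separate groups, Psph, among 5. Phgdh, which starts serine synthesis, read 7.54, 8.17 and 5.98 TPM in Vehicle against 7.98, 8.63 and 4.64 TPM in PGE2. Processed pseudogenes match stretches of its transcript at 95% identity or more. The most expressed of those in the table, Gm7901, matches 1597 of its 1893 bases and read 0.66 to 7.39 TPM. With its pseudogenes added, the log2 change of Phgdh was -0.03 instead of -0.05. Psat1, the transaminase of the next step, stood far above Phgdh with 214, 276 and 247 TPM in Vehicle against 468, 218 and 245 TPM in PGE2. Apart from PGE2 1, its values lay within the Vehicle range, and the log2 change was 0.26 (-0.50 to 1.02).

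Psph (ENSMUSG00000029446, chromosome 5, 129765558 to 129787449, minus strand), the phosphatase of the last step to serine, had the lowest log2 change and the smallest p of the 29. It read 23.5, 34.7 and 27.9 TPM in Vehicle against 20.1, 2.13 and 17.5 TPM in PGE2, so each PGE2 library was below each Vehicle library. The means were 28.7 ± 5.61 and 13.2 ± 9.72 TPM (SD, n = 3 each), with a log2 change of -1.46 (-2.95 to 0.04), an unadjusted limma p of 0.0547 and an adjusted p of 1.00. The unadjusted limma p was 0.0466 with a pseudocount of 5 and 0.0176 with library weights, and the adjusted p was 0.902 or more in both fits. The fold rests most on PGE2 2, without which the log2 change was -0.57. It was -1.95 without PGE2 1 and -1.85 without PGE2 3, with unadjusted limma p of 0.0241 and 0.0339 and adjusted p of 0.586 and 0.821. Psph shares 452 transcript bases with Cct6a, a chaperonin gene on the opposite strand. Cct6a read 684, 1017 and 1260 TPM in Vehicle against 1322, 659 and 661 TPM in PGE2. Reads from the shared stretch cannot be told apart without strand, and the strand setting of the counting is not given in the sources used here.

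Shmt2 and Mthfd2, mitochondrial enzymes that pass the serine carbon to folate, overlapped between groups. Shmt2 read 25.2, 60.9 and 69.9 TPM in Vehicle against 58.5, 34.9 and 38.1 TPM in PGE2, with the lowest and the highest value both in Vehicle. Mthfd2 read 19.6, 18.9 and 20.8 TPM in Vehicle against 29.2, 15.8 and 14.9 TPM in PGE2. Its Vehicle values lay within 1.10-fold of each other and its PGE2 values within 1.96-fold. The log2 changes were -0.15 (-1.11 to 0.80) for Shmt2 and -0.05 (-0.92 to 0.82) for Mthfd2.

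Among the genes of sulfur amino acids, Cth split the PGE2 libraries. Cth (ENSMUSG00000028179, chromosome 3, 157894248 to 157925077, minus strand), the enzyme that releases cysteine from cystathionine, read 41.4, 23.1 and 47.2 TPM in Vehicle against 7.49, 51.1 and 6.40 TPM in PGE2. PGE2 1 and 3 were below all Vehicle libraries and PGE2 2 above them. The log2 change was -1.30 (-2.84 to 0.23), with an unadjusted limma p of 0.0872 and an adjusted p of 1.00. Without PGE2 2, the library that went the other way, it was -2.21, with an unadjusted limma p of 0.000815 and an adjusted p of 0.577. That p-value follows from the library left out and is not support for a change. Cbs, the enzyme of the preceding step, was listed at 0 in 5 libraries and at 0.24 TPM in PGE2 3. Chac1, an ATF4 target that breaks down glutathione, read 3.84, 1.13 and 11.9 TPM in Vehicle against 0.78, 0 and 4.21 TPM in PGE2. Its Vehicle libraries alone spread 10.5-fold, and the log2 change was -1.28 (-3.11 to 0.55). It was -1.93 without PGE2 3, with an unadjusted limma p of 0.0442 and an adjusted p of 0.821.

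Asparagine synthesis, transport and tRNA charging had overlapping groups for all 4 genes. Asns, which makes asparagine and is a textbook target of ATF4, read 29.9, 56.3 and 36.0 TPM in Vehicle against 64.6, 53.8 and 42.6 TPM in PGE2. Its PGE2 libraries were above Vehicle 1 and 3, with a log2 change of 0.42 (-0.36 to 1.20) that kept its sign in all 16 alternatives. It was 0.14 with library weights, 0.23 without Vehicle 1 and 0.67 without Vehicle 2. Slc3a2, the heavy chain of several amino acid transporters, read 37.9, 36.6 and 49.9 TPM in Vehicle against 34.9, 34.9 and 44.8 TPM in PGE2, with a log2 change of -0.11 (-0.82 to 0.59). The glycyl-tRNA synthetase Gars read 48.9, 53.6 and 48.7 TPM in Vehicle against 79.0, 46.3 and 26.8 TPM in PGE2. The alanyl-tRNA synthetase Aars read 20.2, 19.1 and 29.7 TPM in Vehicle against 25.6, 17.8 and 13.1 TPM in PGE2. Both synthetases were highest in PGE2 1 and lowest in PGE2 3 within their group. Vldlr, a lipoprotein receptor that ATF4 can induce, read 3.83, 0.78 and 3.44 TPM in Vehicle against 1.03, 0.74 and 0.29 TPM in PGE2, with a log2 change of -1.02 (-2.36 to 0.31).

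**Figure D3:**
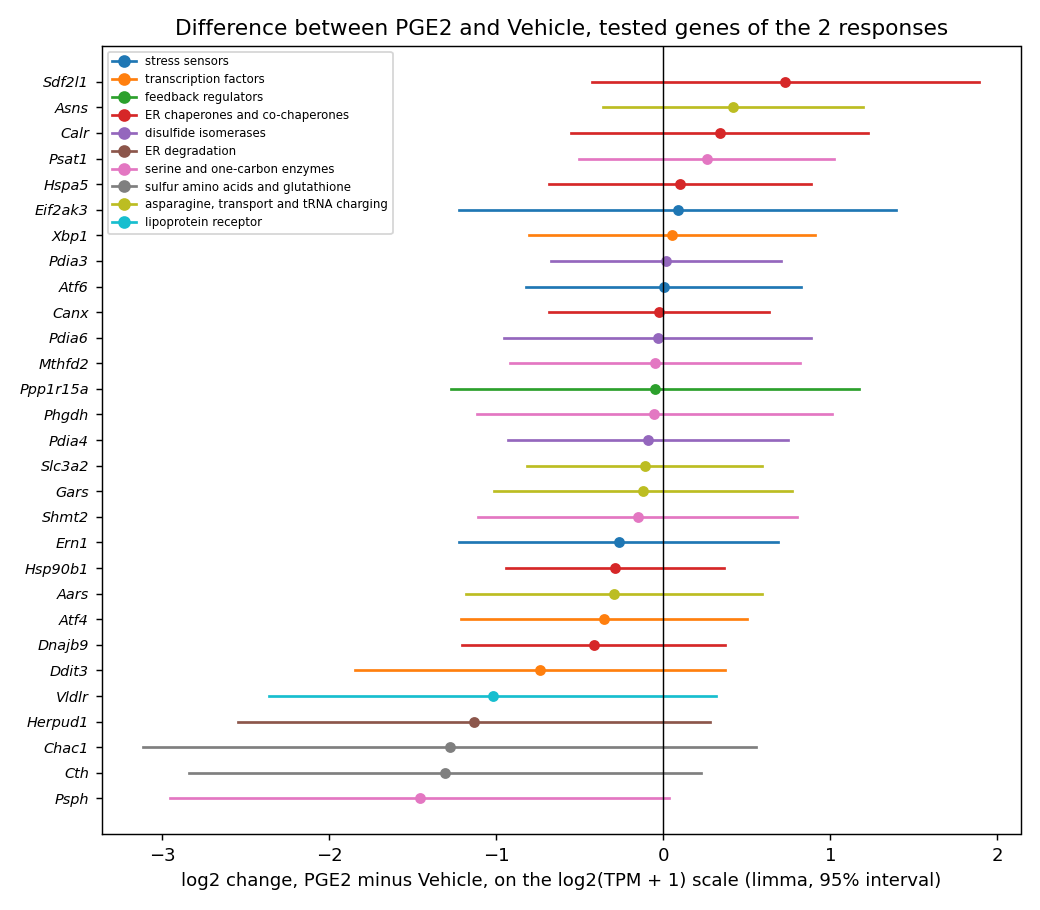
Fitted log2 change (point) and 95% interval (line) of each tested gene, from log2(TPM + 1), with PGE2 above Vehicle to the right, coloured by role and ordered by size. All 29 intervals include 0, from Psph at -1.46 to Sdf2l1 at 0.73.

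Target genes of ATF4 often carry the C/EBP-ATF response element (CARE), searched here as TGATGNAA on both strands in the same windows. It was found in 7 of the 29 members with a window and in 3.97% of all windows. Herpud1 held both a CARE and the ERSE-II, which do not overlap. Of the amino acid genes with a window, Asns, Chac1, Aars and Gars held it. The 7 members held 8 sites, and those of Aars and Trib3 are not shown. The sites of Asns, Chac1, Gars, Herpud1 and Vldlr are given in the direction of the gene. The element is in capitals, on whichever strand it lies.
Asns (chr6:7693205-7693252, minus strand): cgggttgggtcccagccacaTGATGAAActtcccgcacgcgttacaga
Chac1 (chr2:119351029-119351076, plus strand): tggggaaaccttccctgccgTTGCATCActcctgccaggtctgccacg
Gars (chr6:55037951-55037998, plus strand): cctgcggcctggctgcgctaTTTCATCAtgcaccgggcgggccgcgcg
Herpud1 (chr8:94386297-94386344, plus strand): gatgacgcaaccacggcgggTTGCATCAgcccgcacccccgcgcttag
Vldlr (chr19:27216800-27216847, plus strand): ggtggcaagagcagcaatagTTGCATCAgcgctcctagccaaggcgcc

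The 7 members with a CARE (Asns, Chac1, Trib3, Aars, Gars, Herpud1 and Vldlr) had mean levels of 0.198 to 50.5 TPM over the 6 libraries. Of the 6 that were tested, Asns had a higher and 5 had lower fitted values with PGE2. Their median log2 change was -0.66, beside -0.09 for the members and -0.07 for all tested genes, and it was not tested. Chac1, Herpud1 and Vldlr, the lowest of them, had mean levels of 4.68 TPM or less. Lower values were also found for 20 of the 29 tested members and 56.1% of all tested genes, so 5 of 6 is not read as a result about these genes. The cAMP response element, searched as TGACGTCA, is the site of CREB, the factor that PGE2 reaches through its Gs-coupled receptors. It was found in 1 member, Ppp1r15a, whose log2 change was -0.05, and in 1.79% of all windows.
Ppp1r15a (chr7:45526253-45526300, minus strand): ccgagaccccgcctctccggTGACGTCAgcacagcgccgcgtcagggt

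PGE2 libraries differed more among themselves than Vehicle libraries did, for most members and also for the median tested gene. Of the 29, 20 had a larger SD on the log2 scale in PGE2 than in Vehicle, with medians of 0.51 and 0.33. All tested genes had medians of 0.66 and 0.43, so the wider spread is not particular to the members. The matching count over all tested genes is not given here. The summed level of the 9 chaperones and isomerases was 2411, 2316 and 2358 TPM in Vehicle 1 to 3 against 2539.9, 2336 and 1800.0 TPM in PGE2 1 to 3. Vehicle libraries were thus close to each other, PGE2 1 was above them and PGE2 3 below. The 12 amino acid genes summed to 472, 588 and 595 TPM in Vehicle against 796, 483 and 459 TPM in PGE2, again with PGE2 1 above and PGE2 3 below the Vehicle range.

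PGE2 3 was the lowest PGE2 library for 19 of the 29 members (65.5%), where it was for 38.2% of all tested genes. Among the 10 folding genes it was the lowest for 8. PGE2 1 was the highest PGE2 library for 17 members (58.6%), where it was for 47.9% of all tested genes. The median level of the folding genes relative to each gene's Vehicle mean was 0.25 in PGE2 1, 0.07 in PGE2 2 and -0.50 in PGE2 3 on the log2 scale. Over all tested genes these medians were 0.18, -0.14 and -0.20. Members share these libraries, so the counts describe the libraries and are not tests of PGE2.

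**Figure D4:**
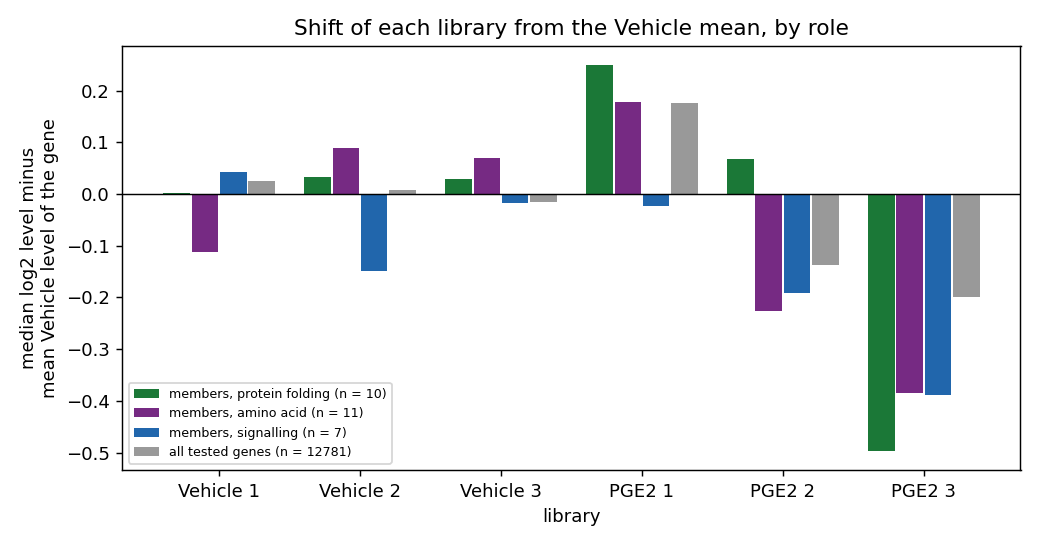
Bars give, for each library, the median over genes of the log2(TPM + 1) level minus the gene's mean Vehicle level, for the folding, amino acid and signalling members and for all tested genes. PGE2 3 has the lowest bars of the 3 member groups, at -0.50 for folding genes, and PGE2 1 has the highest for folding genes, at 0.25.

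None of the other genes tested from the same pathways passed the test. Of 74 listed, 69 were tested, 32 with higher and 37 with lower fitted values and a median log2 change of -0.05. By limma 0 passed the adjusted threshold and 0 had an unadjusted p under 0.05. Among ER folding and degradation genes, 11 of 23 tested were higher. Dnajb11, the ERdj3 partner of BiP, read 158, 163 and 191 TPM in Vehicle against 109, 88.9 and 156 TPM in PGE2, without overlap. Lower PGE2 values without overlap were found for 2 of the 69, Dnajb11 and Derl1, and for 4.84% of all tested genes. Higher PGE2 values without overlap were found for 0 of the 69 and for 3.18% of all tested genes. Sel1l, the adaptor of the ubiquitin ligase that removes misfolded ER proteins, read 372, 401 and 426 TPM in Vehicle against 106, 152 and 536 TPM in PGE2. PGE2 3 was thus above and the other PGE2 libraries below all Vehicle libraries, the reverse of the order seen for the isomerases. Unadjusted limma p-values were 0.0938 for Dnajb11 and 0.0941 for Sel1l.

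Of the regulators of the integrated stress response, which joins several kinases at eIF2α, 5 of 14 tested were higher. Eif2ak4, which encodes the amino acid sensor GCN2, read 6.20, 5.97 and 8.69 TPM in Vehicle against 6.16, 0.98 and 2.48 TPM in PGE2. Eif4ebp1, a translation inhibitor and ATF4 target, read 11.3, 14.9 and 19.9 TPM in Vehicle against 7.01, 3.90 and 14.5 TPM in PGE2. Of the amino acid synthesis and transport genes, 7 of 16 tested were higher. Slc1a5, a glutamine transporter, had a log2 change of -0.64, and Slc7a5, the light chain that pairs with Slc3a2, one of -0.59. Of the 16 cytosolic tRNA synthetases, all tested, 9 were higher, with a median log2 change of 0.09. Tars, for threonine, read 192, 144 and 116 TPM in Vehicle against 83.3, 112 and 118 TPM in PGE2, and Hars, for histidine, had a log2 change of 0.27.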

How the data were processed

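The authors deposited 1 table with 1 column per library. STAR, RSEM and the build mm10 are named per the submitters' processing notes, while strand handling, like versions and annotation, is not given in the sources used here. Per the labels' protocols, the RNA was turned into amplified cDNA (NuGEN Ovation) and then into libraries. The deposited values are taken as TPM, since the column sums run from 992357 to 995645. This unit holds no depth, so the depth is unknown and no counting interval is given. An exact 0 can be a failed estimate and is written as listed at 0. No 2 libraries were identical.

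PGE2 was compared with Vehicle over the genes that reached 1 TPM in 3 or more libraries, with limma 3.58.1 (R 4.3.3, mean trend, not robust) on log2(TPM + 1), two-sided, and p-values were adjusted by Benjamini-Hochberg over these 12781 genes. The fit was tested on simulated data. Members, lists and the rule for genes named (all members, and 2 genes of smallest p per other list) were chosen with earlier results of these data known. Cd74, Cdh5, Ptprc, Laptm5, Emcn, Eng, Tek, Pecam1, Col3a1, Pdgfra, Dcn, Lum, Dpt, Acta2, Mars, 1810014B01Rik, Cct6a and Gm7901 were named after their values were seen. So were Derl1, Myf5, Myod1, Cdh15 and Itga7. Positions are from GENCODE M21 (mm10). Copies were sought with blastn (identity of 95% over at least 200 bases). Promoters are from RefSeq (GRCm38.p6), with 2 members, Atf6 and Cth, not matched. Alternatives covered pseudocount, filter, scaling, variance prior, library weights, replicate block and each library left out.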

Additional observations from a re-analysis of the deposited data

How the results depend on the processing

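No member and no other pathway gene passed the adjusted threshold of limma under any of the 16 alternatives, which covered pseudocounts of 0.1 and 5, no filter and one of 5 TPM, 3 other scalings, a robust prior, library weights, the replicate block and each library left out. Over all genes the count was 1 with a robust variance prior and 0 to 1 when 1 library was left out (1 without Vehicle 1 or any single PGE2 library). The members' median log2 change ran from -0.30 without PGE2 1 to 0.13 without PGE2 3, a change of sign, and from -0.21 to -0.04 under the other alternatives. For Hspa5 the log2 change was -0.063 with library weights and ran from -0.19 to 0.35 when 1 library was left out. For Xbp1 it was -0.12 with library weights and ran from -0.15 to 0.23. Asns, Atf4, Cth, Ddit3, Hsp90b1 and Psph kept their sign in each alternative. Cth ran from -2.21 to -0.80, Psph from -1.95 to -0.57 and Atf4 from -0.63 to -0.03 when 1 library was left out. The cause of these shifts was not tested. Libraries with the same number shared little deviation (r = -0.06, -0.04 and 0.07 for numbers 1 to 3). The libraries numbered 3 were each other's best match, and those numbered 1 and 2 were not. The mitochondrial share rose from number 1 to 3 in both groups. The numbers were not taken as pairs outside the replicate block. With the replicate block, 0 genes passed and 1 member, Psph, had an unadjusted p under 0.05. That number was 1 with a pseudocount of 5, 2 with library weights and 0 to 3 when 1 library was left out. Over all 12781 tested genes, 482 had an unadjusted p under 0.05 with the replicate block, 450 with a pseudocount of 5 and 670 with library weights. When 1 library was left out, 272 to 929 genes did, the most without PGE2 1. The sum of Phgdh with its near-identical copies was added after seeing the data. Single-gene p-values of fits without 1 library were printed only where they fell under 0.05. The median half-width of the members' unadjusted 95% intervals, 0.89 on the log2 scale, is a lower guide to what 3 libraries a group can show. Psph at -1.46 and Cth at -1.30 did not pass, and the size needed to pass after adjustment is not given here.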
